A study of Oryza sativa with 24 samples.

Results

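Auxin response factors (ARFs) and LATERAL ORGAN BOUNDARIES DOMAIN (LBD) genes were followed through the first days of callus culture of rice scutella. Members were taken from the gene annotation of the deposited table. A gene was included if its description named an auxin response factor, a lateral organ boundaries or LOB domain or an LBD protein, or if its name began with OsARF and a digit or with LBD or OsLBD, and descriptions with ADP-ribosylation or AUX/IAA were left out. The rule found 52 of 38866 genes, 26 ARFs and 26 LBD genes, on 12 chromosomes of the IRGSP-1.0 genome. A filter on low counts left 29710 genes for testing, among them 25 ARFs and 21 LBD genes. OsARF20 (Os07g0183100) had no count in any library, and the other 5 untested members were LBD genes that reached 12 counts in at most 1 library each. OsARF12 (Os04g0671900) is annotated in another way and was not a member.

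RNA was sequenced from scutella of 35Spro:OsMIR393b and of wild-type rice, cultivar Nipponbare. 35Spro:OsMIR393b carries OsMIR393b under the viral 35S promoter, which is active in most plant tissues, and its miR393 targets transcripts of the auxin receptors OsTIR1 and OsAFB2. It is a single line, and no second line of this kind was sequenced here. Both genotypes were cultured on N6 medium without hormone for 2 d or on callus-inducing medium (CIM), which adds the synthetic auxin 2,4-D, for 2, 5 or 7 d. Each of the 8 groups had 3 libraries, each from scutella of 10 seeds, described as biological replicates. The labels call the tissue mature embryo and the study's methods call it scutellum. N6 was sampled at 2 d only, so medium and culture time cannot be told apart at 5 and 7 d.

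ARFs are transcription factors that bind auxin response elements in promoters. At low auxin, Aux/IAA repressors sit on them, and auxin acts as a glue between Aux/IAA proteins and the TIR1/AFB receptors, after which the repressors are degraded. ARFs of the activator class have a glutamine-rich middle region and switch target genes on, and most others are thought to repress. Small RNAs control 2 further classes in plants: miR160 cleaves the transcripts of 1 class, and tasiR-ARF small RNAs, made with the help of ARGONAUTE7 and SGS3, cleave those of the class related to Arabidopsis ETTIN. LBD genes are plant-specific transcription factors, some of which are direct ARF targets. Rice CRL1 is needed for crown roots, and in Arabidopsis LBD16, LBD17, LBD18 and LBD29 act in callus formation.

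Library totals ran from 50341636 to 70796624 counts. Levels of a gene are given as CPM, its counts relative to the library's effective size. That size was set by TMM scaling, which brings libraries to a common scale from the bulk of their genes. Levels are compared between genes only in FPKM, which takes transcript length into account. Calls of higher or lower required both an absolute log2 fold change above 1 and an adjusted p under 0.05, from edgeR's quasi-likelihood test over all 29710 genes. The 10 most abundant genes took 18.0% to 18.4% of the counts in 35Spro:OsMIR393b at 7 d, against 4.26% to 4.38% in wild-type at 7 d. Scaling by library totals instead moved the median log2 difference of all genes to -0.60 for the line minus wild-type in the change at 7 d, to -0.33 at 5 d, to -0.27 for the line at 7 d against N6, and to 0.29 and 0.25 for wild-type at 7 d and 5 d. Replicate 1 of the line at 5 d had the lowest mean correlation with its group (0.937, against 0.942 to 0.971 for the other 23 libraries) and is named wherever a result turned on it. Seed storage protein genes of endosperm (48 genes described as glutelin or prolamin) summed to 242 to 304 CPM in the line and 57.2 to 76.9 CPM in wild-type at 7 d, against 671 to 787 and 479 to 654 CPM on N6, and 10 of them were at 0 in the line and 31 in wild-type at 7 d. In bulk RNA, fewer cells of a type and less RNA per cell cannot be told apart.

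The line carried less receptor mRNA. OsTIR1 (TIR1 in the annotation) had 24.2 to 27.5 CPM in the N6 libraries of the line, against 104 to 117 CPM in those of wild-type (log2 fold change -2.09, SE 0.11, edgeR adjusted p = 7.3e-10). OsAFB2 had 77.1 to 90.5 CPM in the line and 129.8 to 149 CPM in wild-type (log2 fold change -0.78, SE 0.10, edgeR adjusted p = 1.0e-04), below the minimum fold. Few members of the ARF and LBD families were called on N6. The median log2 fold change there was -0.34 for the 8 activator ARFs, -0.003 for the 25 ARFs and 0.011 for all genes. Gaps on N6 enter the differences in change given below. No ARF of 25 was called between the line and wild-type, with a background of 2.97% of all genes called in either direction, and 5 ARFs had an unadjusted p under 0.05. DESeq2 also called 0 ARFs. The 1 LBD gene called was Os08g0563400 (annotated as similar to LOB domain protein 17), at 2.16, 2.71 and 1.56 CPM in the line against 6.77, 7.14 and 7.41 CPM in wild-type. Its libraries did not overlap (log2 fold change -1.73, SE 0.25, edgeR adjusted p = 0.00052). Without wild-type N6 replicate 1 the count of LBD genes was 2. Os04g0519700, 1 of 2 genes that the annotation names OsARF10, was at 13.9, 13.9 and 17.6 CPM in the line and 20.7, 28.7 and 30.8 CPM in wild-type, also without overlap, and its log2 fold change of -0.82 (SE 0.23, edgeR adjusted p = 0.034) missed the minimum fold. Markers of green shoot (chlorophyll a/b-binding and Rubisco small subunit genes, 6 in all, 1 at 0) summed to 129 to 215 CPM on N6 in the line and 14.4 to 32.3 CPM in wild-type, and their part in these values was not tested.

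The summed FPKM of each family set the genotypes apart on CIM. In 35Spro:OsMIR393b the 26 ARFs summed to 395 ± 26 FPKM on N6, 445 ± 43.1 on CIM at 2 d, 409.6 ± 98.1 at 5 d and 258 ± 30.7 at 7 d (mean ± SD of 3 libraries). In wild-type the sums were 392 ± 5.52 FPKM on N6, 546 ± 65.8 at 2 d, 1078 ± 30.9 at 5 d and 987 ± 46.3 at 7 d. The N6 ranges overlapped between genotypes, and at 5 and 7 d every wild-type library lay above every library of the line. The 26 LBD genes summed to 94.7 ± 39.0, 179.7 ± 35.2, 135 ± 48.0 and 95.8 ± 2.1 FPKM in the line over the same series, and to 105 ± 14.7, 265 ± 22.0, 243 ± 32.9 and 273 ± 21.8 FPKM in wild-type. FPKM values are scaled by library totals, and an exact test of 3 against 3 libraries cannot go below p = 0.1, so the sums are given without a test. OsARF23 (Os11g0523800, chromosome 11: 18935399 to 18941686, minus strand), which controls actin organisation in rice, held the largest share of the ARF sum in wild-type on CIM, 22.2% at 2 d, 19.9% at 5 d and 19.6% at 7 d. OsARF4 followed it in mean FPKM over all libraries, and OsARF15 was the third. Among the LBD genes the leading member changed with the group. It was Os07g0589000 in the line at 7 d, with 38.9% of the sum, and OsDH1 in wild-type at 5 d, with 34.3%.

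**Figure D1:**
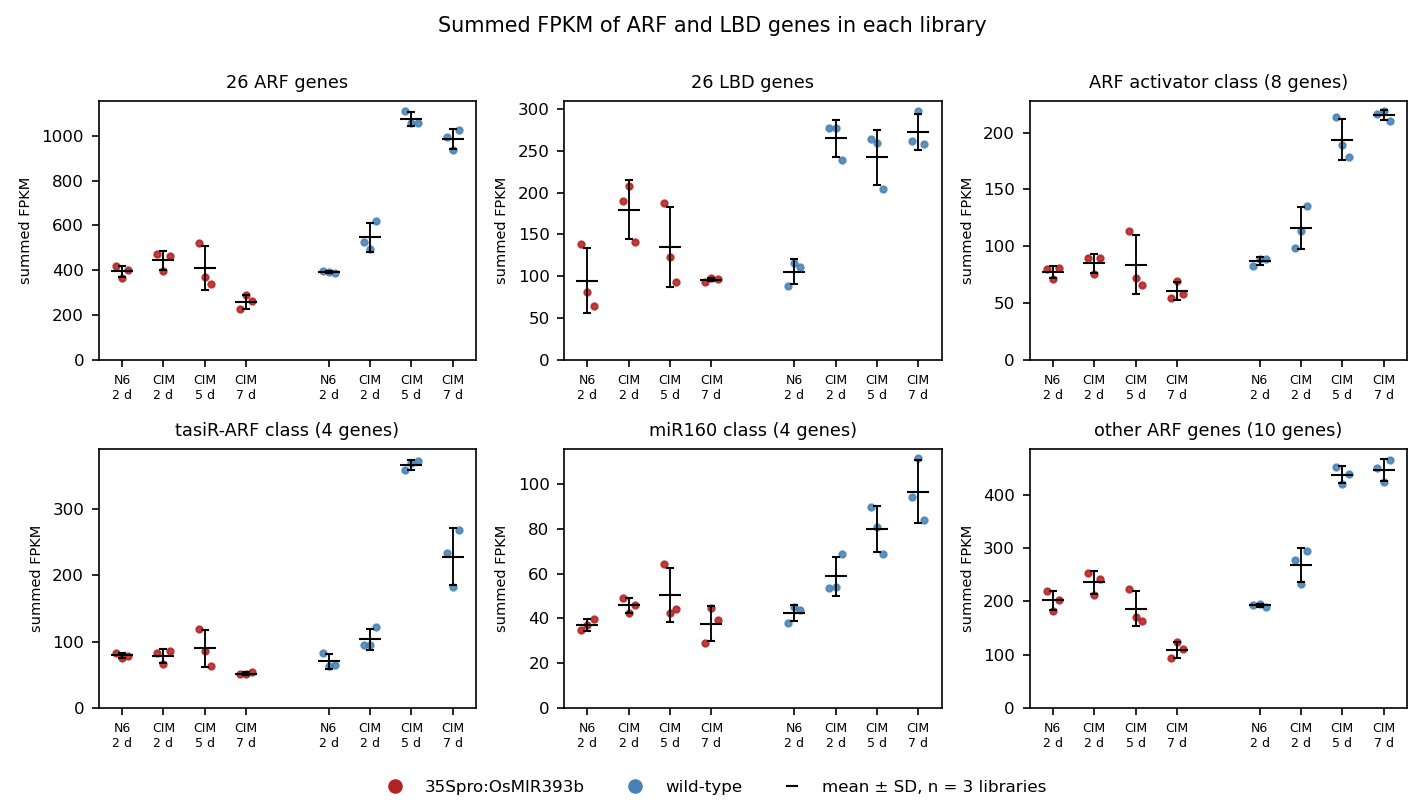
Summed FPKM (vertical axis) of the 26 ARFs, the 26 LBD genes and 4 classes of ARFs in each library, by medium and day (horizontal axis), for 35Spro:OsMIR393b at left in each panel and wild-type at right; points are libraries and bars the mean ± SD of 3. The tasiR-ARF class reached 367 ± 7.64 FPKM in wild-type at 5 d, and the line stayed at 89.6 ± 28.4 FPKM.

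In wild-type, most ARFs that changed on CIM were higher, and the number grew with time. At 2 d 8 of 25 ARFs were higher and 1 was lower than on N6 (all genes: 4.3% higher and 4.01% lower). At 5 d 11 were higher and 2 lower (all genes: 12.6% and 14.6%), and at 7 d 12 were higher and 1 lower (all genes: 14.2% and 14.7%). The median log2 fold change of the 25 ARFs was 0.13 at 2 d, 0.79 at 5 d and 0.96 at 7 d, against 0.00, 0.02 and 0.02 for all genes. By their highest group mean, 11 ARFs peaked at 5 d, 10 at 7 d, 4 on N6 and 0 at 2 d. The peaks of all genes were not counted, and ARFs without a call in any comparison, such as OsARF7 and OsARF24, are included. With library totals as the scale, 14 were higher and 1 lower at 5 d, and 16 higher and 0 lower at 7 d. On that scale 4896 of all 29710 genes were higher and 3556 lower at 5 d, and 5824 and 3425 at 7 d. The 3 comparisons share the N6 libraries of wild-type.

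Fewer ARFs were called in the line, and most of those at 7 d were lower. At 2 d 3 ARFs were higher and 0 lower (all genes: 1.22% and 0.37%), at 5 d 4 were higher and 0 lower (all genes: 6.35% and 4.21%), and at 7 d 1 was higher and 5 were lower (all genes: 10% and 12.5%). OsARF19, OsARF23 and Os04g0519700 were the 3 at 2 d, and without replicate 1 of the line at 2 d only OsARF19 was called. OsARF19, OsARF11, OsARF13 and Os04g0519700 were higher at 5 d, and OsARF19 at 7 d. Lower at 7 d were OsARF2, OsARF3, OsARF6a, OsARF9 and Os01g0236300. The median log2 fold change of the ARFs was 0.13 at 2 d, 0.16 at 5 d and -0.18 at 7 d (all genes: 0.00, 0.02 and -0.02). By library totals the split was 3 higher and 1 lower at 5 d, and 0 higher and 8 lower at 7 d. Of all 29710 genes, 1626 were then higher and 1411 lower at 5 d, and 2104 and 4993 at 7 d.

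The difference between the genotypes in the change against N6 was tested directly. At 2 d 0 ARFs passed (6 at an unadjusted p under 0.05, and 2 with DESeq2, OsARF13 and OsARF14, both lower in the line), where 0.535% of all genes did. At 5 d 9 ARFs of 25 had a lower change in the line and 0 a higher one (all genes: 6.5% lower and 11.8% higher). At 7 d 15 had a lower change and 1 a higher one (all genes: 16.1% and 15.5%). By library totals 21 had a lower and 1 a higher change, as did 8045 and 2724 of all 29710 genes. The median log2 difference of the ARFs was -0.15 at 2 d, -0.72 at 5 d and -1.53 at 7 d, against 0.00, 0.00 and -0.07 for all genes. Cell division genes (proliferating cell nuclear antigen, histone H4 and MCM genes, 21 in all, at most 1 at 0 in a group) were lower in the line in every group, N6 included. They summed to 366 to 462 CPM on N6, 415 to 645 at 2 d, 374 to 835 at 5 d and 247 to 491 at 7 d in the line. In wild-type the ranges were 475 to 575, 766 to 1195, 1808 to 2139 and 1379 to 1448 CPM. Markers of scutellum and aleurone (alpha-amylase and oleosin genes, 17 in all, at most 2 at 0 in a group) were higher in the line in every group, N6 included. They summed to 24683 to 32542 CPM in the line and 1932 to 2905 CPM in wild-type at 7 d, against 19439 to 22629 and 7189.9 to 8918 CPM on N6. The part of either in the ARF differences was not tested.

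Of the 8 ARFs higher in wild-type at 2 d, 4 belonged to the activator class (OsARF5, OsARF11, OsARF16 and OsARF19). OsARF19 (Os06g0702600, chromosome 6: 29657101 to 29665060, plus strand), related to Arabidopsis ARF7 and ARF19 and known to control leaf angle in rice, had 7.34, 7.48 and 10.5 CPM on N6, 28.0, 20.8 and 32.0 CPM on CIM at 2 d, 51.6, 28.5 and 22.0 CPM at 5 d and 11.1, 25.2 and 18.9 CPM at 7 d in the line. In wild-type it had 14.1, 13.4 and 15.0 CPM on N6, 47.4, 69.3 and 82.8 CPM on CIM at 2 d, 144, 125 and 114 CPM at 5 d and 124, 121 and 121 CPM at 7 d. Every CIM library of either genotype lay above its own N6 libraries and the wild-type libraries were above those of the line in each group, N6 included. The change was 1.67 ± 0.30, 2.01 ± 0.30 and 1.12 ± 0.29 on the log2 scale at 2, 5 and 7 d in the line and 2.23 ± 0.30, 3.17 ± 0.31 and 3.10 ± 0.31 in wild-type (± SE, all 6 called by edgeR). The difference was called at 5 d (-1.16, edgeR adjusted p = 0.035) and at 7 d (-1.98, edgeR adjusted p = 0.0006). The 5 d call was lost on leaving out any one of 9 of its 12 libraries (edgeR adjusted p = 0.052 to 0.098), and the call at 7 d in the line was lost without replicate 2 of that group (0.83) and by library totals (0.89).

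OsARF16 (Os06g0196700), which acts in phosphate and auxin responses of rice roots, was not called in the line at any time. It had 18.6, 16.7 and 15.9 CPM on N6, 29.1, 23.9 and 24.4 CPM on CIM at 2 d, 35.5, 17.4 and 18.0 CPM at 5 d and 10.9, 21.8 and 12.7 CPM at 7 d there. Wild-type had 17.9, 20.8 and 18.2 CPM on N6, 40.6, 58.2 and 70.2 CPM on CIM at 2 d, 102, 83.7 and 66.8 CPM at 5 d and 92.8, 97.2 and 90.1 CPM at 7 d. In the line the 5 and 7 d libraries overlapped N6, while each wild-type CIM group was clear of N6. Its log2 fold change in wild-type was 1.57 ± 0.27 at 2 d, 2.15 ± 0.27 at 5 d and 2.30 ± 0.27 at 7 d (± SE, all called by edgeR), and the line differed by -1.68 at 5 d and by -2.47 at 7 d (edgeR adjusted p = 0.0021 and 3.1e-05). OsARF5 (Os02g0141100) was the least abundant activator. The line had 1.79, 1.35 and 2.44 CPM on N6, 5.04, 2.76 and 5.46 CPM on CIM at 2 d, 8.29, 2.56 and 2.30 CPM at 5 d and 0.572, 6.36 and 0.865 CPM at 7 d. Wild-type libraries held 2.40, 3.14 and 3.60 CPM on N6, 10.8, 13.0 and 21.7 CPM on CIM at 2 d, 24.1, 21.3 and 25.6 CPM at 5 d and 30.5, 34.3 and 31.2 CPM at 7 d. All 9 wild-type CIM libraries were above all 12 of the line. In wild-type the log2 fold change reached 3.39 at 7 d (SE 0.66, edgeR adjusted p = 0.00026), and the line differed by -2.90 (SE 0.89, edgeR adjusted p = 0.011). Replicate 2 of the line at 7 d set the direction in the line: its log2 fold change was 0.49 with it and -1.37 without it (edgeR adjusted p = 0.036). The wild-type call at 2 d (2.31) was lost without replicate 3 of that group or N6 replicate 1 or 2 (edgeR adjusted p = 0.055 to 0.067).

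OsARF11 (Os04g0664400), the rice relative of Arabidopsis MONOPTEROS, a gene of embryo patterning, spread widely between libraries of the line. At 5 d these had 61.4, 39.1 and 10.7 CPM, against 7.82, 5.07 and 7.69 CPM on N6, and at 7 d 3.56, 10.3 and 9.47 CPM. The libraries at 5 d were all above N6 (37.1 ± 25.4 CPM, SD, n = 3), and those at 7 d overlapped N6. Wild-type had 89.6, 90.6 and 81.6 CPM at 5 d and 91.0, 68.5 and 95.2 CPM at 7 d, against 11.5, 12.7 and 11.5 CPM on N6. Its rise was called in wild-type at all 3 times (1.84, 2.88 and 2.84 on the log2 scale at 2, 5 and 7 d) and in the line at 5 d (log2 fold change 2.43, SE 0.52, edgeR adjusted p = 0.0022), and the genotypes differed by edgeR at 7 d (-2.66, adjusted p = 0.0048). The wild-type call at 2 d was lost without replicate 3 of that group or N6 replicate 2 or 3 (edgeR adjusted p = 0.051 to 0.061). OsARF6a and OsARF17, named after their values were seen and related to Arabidopsis ARF6 and ARF8, were not called in wild-type at any time. Their difference at 7 d was -1.62 and -1.53 (both called by edgeR), and OsARF6a itself was lower in the line at 7 d (-1.10). OsARF6b was not called in any comparison, and its level was 49.2 ± 3.65 CPM in the line and 94.4 ± 10.5 CPM in wild-type at 7 d (SD, n = 3 each). OsARF12, which is not a member but belongs to the same class, had 11.3 ± 3.43 CPM in the line and 74.8 ± 10.8 CPM in wild-type at 7 d, with a log2 difference of -2.63 in the change (SE 0.36, edgeR adjusted p = 9.5e-06).

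OsARF7b (Os08g0520500), put in the activator class by gene ID, ran against that class. The line had 17.5, 13.7 and 17.6 CPM on N6, 10.3, 13.4 and 11.1 CPM on CIM at 2 d, 9.44, 14.1 and 17.1 CPM at 5 d and 23.7, 18.7 and 19.3 CPM at 7 d. In wild-type the libraries had 12.8, 13.3 and 12.7 CPM on N6, 7.24, 6.87 and 6.74 CPM on CIM at 2 d, 5.47, 6.04 and 5.94 CPM at 5 d and 5.54, 5.35 and 5.34 CPM at 7 d. From 2 d on every wild-type library was below every N6 library of either genotype and below every library of the line. Its log2 fold change in wild-type was -1.16 at 5 d and -1.26 at 7 d (SE 0.16 and 0.16, called by edgeR; -0.92 and -0.98 by library totals, under the minimum fold), and the line differed by 1.60 at 7 d (edgeR adjusted p = 1.6e-05). The gene model is short, from 25870837 to 25871444 on chromosome 8, and lies 1944 bases from Os08g0520550, on the same strand, which the annotation also describes as auxin response factor 21. Whether they are pieces of 1 gene cannot be told from the counts, and Os08g0520550 was counted with the other ARFs, not in the activator class. Os08g0520550 was also lower in wild-type at 5 d, with 21.8, 22.6 and 17.2 CPM against 48.5, 51.8 and 45.3 CPM on N6 (log2 fold change -1.24, SE 0.15, edgeR adjusted p = 2.1e-06). In the line it had 34.0, 43.9 and 50.1 CPM at 5 d, and at 7 d the difference between the genotypes was not called by edgeR (-0.12, SE 0.21, adjusted p = 0.69).

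**Figure D2:**
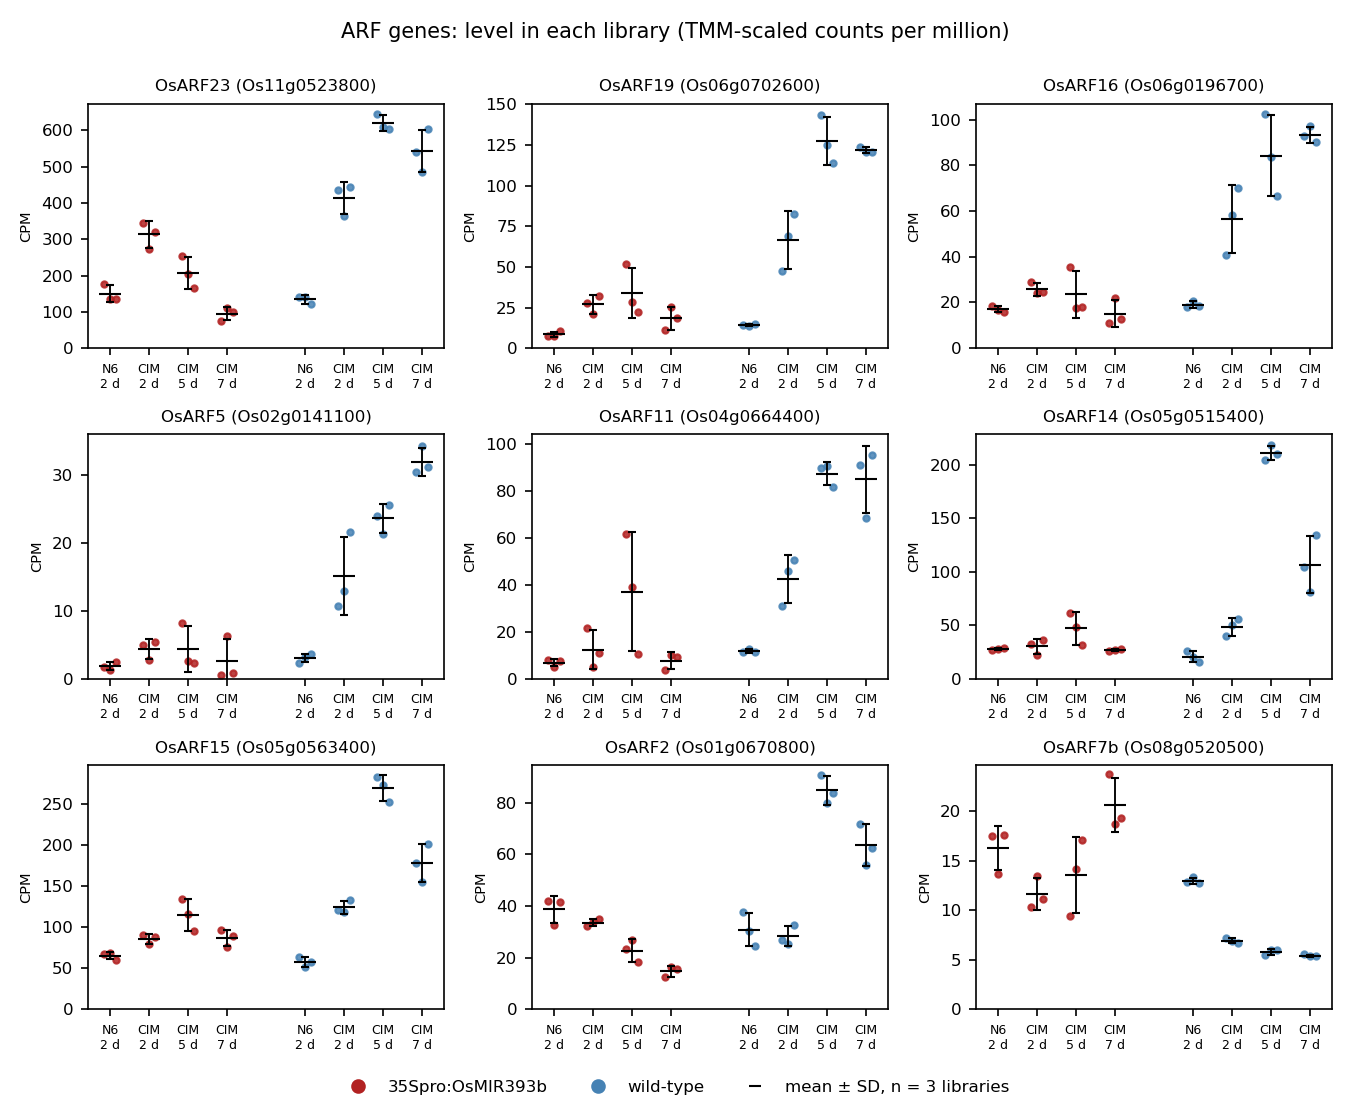
CPM of 9 ARFs (vertical axis of each panel) in each library by medium and day (horizontal axis), with 35Spro:OsMIR393b at left and wild-type at right; points are libraries and bars the mean ± SD of 3. OsARF5 lay at 0.572 to 6.36 CPM in the line and 30.5 to 34.3 CPM in wild-type at 7 d, and in the panel of OsARF7b every CIM library of the line lies above every CIM library of wild-type.

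The tasiR-ARF class (OsARF2, OsARF3, OsARF14 and OsARF15, related to Arabidopsis ETTIN and ARF4) had all its members called higher in wild-type at 5 and 7 d. There 2 of 4 were higher at 2 d, 4 of 4 at 5 d and 4 of 4 at 7 d (all genes: 4.3%, 12.6% and 14.2%). In the line 0 were called higher at any time and 2 were called lower at 7 d (all genes: 12.5% lower). Without a call, OsARF15 had 76.4 to 134 CPM in the CIM libraries of the line, all above its N6 libraries there (60.0 to 68.5 CPM). OsARF14 was clear of N6 in the line at 5 d only. The change of all 4 was lower in the line than in wild-type at 5 d (log2 difference -2.60 to -1.42) and at 7 d (-2.43 to -1.22), each called by edgeR, where 6.5% and 16.1% of all genes had a lower change. Each had its highest wild-type mean at 5 d. OsARF14 (Os05g0515400, chromosome 5: 25555850 to 25561791, plus strand) had 26.9, 28.3 and 28.5 CPM on N6, 32.5, 22.7 and 36.5 CPM on CIM at 2 d, 61.6, 48.6 and 31.3 CPM at 5 d and 26, 26.7 and 27.4 CPM at 7 d in the line. Wild-type scutella had 25.8, 20.1 and 15.8 CPM on N6, 39.9, 49.8 and 55.7 CPM on CIM at 2 d, 205, 218 and 210.4 CPM at 5 d and 104, 81.0 and 134 CPM at 7 d. The wild-type libraries at 5 d were at least 3 times as high as the highest library of the line, and at 7 d the groups were still apart. Its wild-type log2 fold change at 5 d was 3.36 (SE 0.24, edgeR adjusted p = 5.1e-09), and the line differed by -2.60 (SE 0.32, edgeR adjusted p = 1.2e-05). OsARF15 had 115 ± 19.6 CPM in the line and 269 ± 16.0 CPM in wild-type at 5 d, against 65.4 ± 4.69 and 57.3 ± 6.28 CPM on N6 (SD, 3 libraries each), and the line differed by -1.42 (SE 0.18, edgeR adjusted p = 1.2e-05).

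OsARF2 and OsARF3 went opposite ways in the genotypes. OsARF2 had 41.9, 32.8 and 41.5 CPM on N6, 32.3, 33.7 and 34.9 CPM on CIM at 2 d, 23.4, 26.8 and 18.3 CPM at 5 d and 12.4, 16.3 and 15.5 CPM at 7 d in the line, where the 7 d libraries were below all others of both genotypes. In wild-type it had 37.5, 30.3 and 24.7 CPM on N6, 26.8, 25.5 and 32.8 CPM on CIM at 2 d, 90.7, 80.0 and 83.5 CPM at 5 d and 71.9, 55.8 and 62.6 CPM at 7 d, so that the rise came after 2 d. It was lower in the line at 7 d (log2 fold change -1.39, SE 0.16, edgeR adjusted p = 1.9e-06) and higher in wild-type at 5 d (log2 fold change 1.46, SE 0.16, edgeR adjusted p = 6.3e-07). OsARF3 had 51.5, 45.3 and 60.2 CPM in the line at 7 d against 109.8, 102 and 102 CPM on N6, and 282, 329.9 and 345 CPM in wild-type at 5 d against 109.8, 83.2 and 87.5 CPM on N6. The 7 d calls of OsARF3 sat at the minimum fold (-1.0 in the line, 1.0 in wild-type) and fell short of it with DESeq2 (-0.99 and 0.98), and that of OsARF2 in wild-type (1.04) fell short without 7 d replicate 1 (0.91) or N6 replicate 3 (0.86). Of the 4 genes of the tasiRNA pathway in the table, OsSGS3, a cofactor in making these RNAs, was higher in wild-type at 5 d (59.9 ± 1.54 CPM, against 19.7 ± 8.99 CPM on N6; log2 fold change 1.61, SE 0.22, edgeR adjusted p = 5.5e-06), and the line differed from it (log2 -1.99, edgeR adjusted p = 7.3e-05). The gene shl4, annotated as similar to ARGONAUTE7, had 0 counts in all 6 N6 libraries. On CIM it reached 0 to 1.74 CPM in the line and 13.2 to 23.1 CPM in wild-type at 5 d, and 0 to 0.828 and 21.0 to 22.0 CPM at 7 d. The wild-type change at both times was called by edgeR, and no fold is given against a group at 0. Its change in the line was not called, and the difference between the genotypes could not be estimated, since both N6 groups were at 0. SHL2 and DCL4, the other 2 genes, were not called in any comparison.

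The miR160 class had at most 1 call in any comparison. Where it had 1, the shares of all genes were 14.2% higher in wild-type at 7 d and 1.22% and 6.35% higher in the line at 2 and 5 d. For the difference at 7 d, 16.1% of all genes had a lower change in the line. Of its 4 members, OsARF8 was higher in wild-type at 7 d, at 81.4, 95.2 and 64.7 CPM against 26.2, 37.6 and 36.5 CPM on N6 (log2 fold change 1.27, SE 0.33, edgeR adjusted p = 0.0031), and its libraries in the line spread from 9.65 to 34.6 CPM at 7 d, against 29.8, 30.3 and 34.9 CPM on N6, with 2 of the 3 below all N6 libraries. Its change differed between the genotypes at 7 d (-1.75, SE 0.46, edgeR adjusted p = 0.0041). Os04g0519700 was higher in the line at 2 d, with 32.8, 31.3 and 30.5 CPM, and at 5 d, with 43.2, 25.7 and 23.4 CPM (log2 fold change 1.06 and 1.03, called by edgeR). Both calls were near the limits: the first was lost without 2 d replicate 1 or N6 replicate 1 or 2 (edgeR adjusted p = 0.066 to 0.08) and the second without 5 d replicate 1 (0.70) or N6 replicate 1 or 2 (0.97 and 0.97). In wild-type its log2 fold change was 0.94, 0.79 and 0.96 at 2, 5 and 7 d, under the minimum fold. OsARF22 and Os06g0685700 were not called in any comparison.

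Among the other ARFs, OsARF23 had 177, 137 and 136 CPM on N6, 345, 274 and 321 CPM on CIM at 2 d, 254, 203 and 165 CPM at 5 d and 74.8, 112 and 99.6 CPM at 7 d in the line. Its wild-type libraries had 142, 141 and 121 CPM on N6, 437, 364 and 444 CPM on CIM at 2 d, 645, 609.9 and 603 CPM at 5 d and 541, 487 and 603 CPM at 7 d. It rose in both genotypes at 2 d, to levels that did not overlap N6, and then parted: the wild-type libraries at 5 and 7 d were more than 3 times as high as on N6, while those of the line at 7 d were all below their N6 level. The log2 fold change at 2 d was 1.06 ± 0.16 in the line and 1.62 ± 0.17 in wild-type (± SE, both called by edgeR), and the difference was -0.56 at 2 d (edgeR adjusted p = 0.3), -1.73 at 5 d (2.2e-05) and -2.66 at 7 d (1.5e-07). The 2 d call in the line fell to 0.99 without replicate 1 of that group and just under the minimum fold without N6 replicate 3. OsARF4 had 116 ± 10 CPM in the line and 270.3 ± 6.94 CPM in wild-type at 7 d, against 149 ± 6.20 and 142 ± 8.27 CPM on N6 (SD, n = 3 each). Neither change passed the minimum fold (-0.37 and 0.93), and the difference did (-1.30, SE 0.12, edgeR adjusted p = 2.2e-07).

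OsARF13 (Os04g0690600) had a higher level in wild-type at all 3 times (1.34, 2.29 and 1.85 on the log2 scale, called by edgeR) and in the line at 5 d (1.29). At 5 d it had 9.71, 7.96 and 6.33 CPM in the line and 19.2, 18.6 and 20.0 CPM in wild-type, with no overlap. The difference in the change, -1.0, was at the minimum fold and lay between -0.86 and -1.0 in the 8 refits without 1 library in which its call was lost. Arf75 (Os03g0345100), also named after its values were seen, was called in wild-type at 5 d (1.33) and 7 d (1.66) and differed in the line by -1.17 and -1.84. OsARF9 (Os04g0442000) was lower in the line at 7 d. It had 10.8, 24.6 and 15.2 CPM at 7 d against 68.5, 55.8 and 59.8 CPM on N6 in the line, and 74.3, 81.6 and 75.3 against 63.9, 64.6 and 54.3 CPM in wild-type. All 3 libraries of the line at 7 d were below all others (log2 fold change -1.86, SE 0.23, edgeR adjusted p = 2.7e-06; difference -2.20, edgeR adjusted p = 1.5e-05). Os01g0236300 also carries the name OsARF16 in the annotation, although the OsARF16 above is another gene. It was lower in the line at 7 d (7.70, 9.78 and 9.20 CPM against 22.6, 19.8 and 24.3 CPM; -1.32) and in wild-type at 2 d (13.4, 7.97 and 10.6 CPM against 18.5, 22.3 and 28.7 CPM; -1.12), both called by edgeR. The wild-type call needed 2 d replicate 2 and N6 replicate 3 (-0.95 and -0.97 without them). OsARF7 and OsARF24, the partner of OsARF23 in rice, were not called in any comparison.

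**Figure D3:**
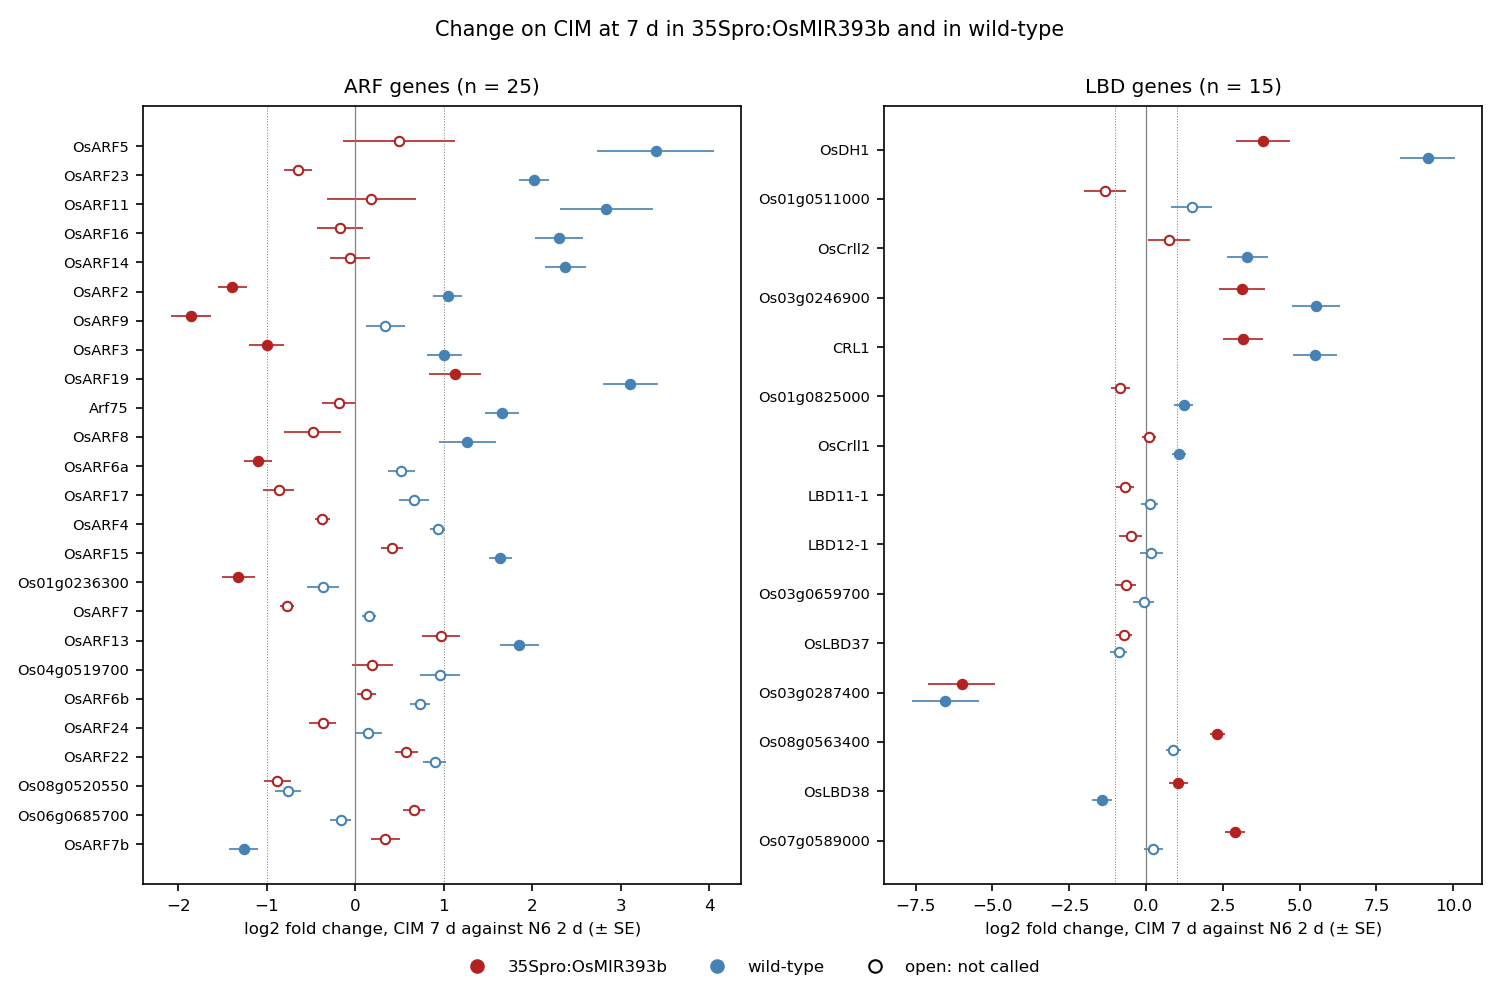
Log2 fold change on CIM at 7 d against N6 (horizontal axis, ± SE) of 25 ARFs and of the 15 LBD genes with a group mean of at least 1 CPM (vertical axis), 35Spro:OsMIR393b above wild-type in each pair. Filled points were called, and genes are ordered by the difference between the genotypes, from OsARF5 (-2.90) to OsARF7b (1.60) in the left panel and from OsDH1 (-5.35) to Os07g0589000 (2.65) in the right panel.

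Most LBD genes called on CIM against N6 were higher in both genotypes. In wild-type 7 of 21 LBD genes were higher and 1 lower at 2 d, and 7 were higher and 3 lower at both 5 and 7 d (all genes: 4.3% and 4.01%, 12.6% and 14.6%, and 14.2% and 14.7%). In the line 5 were higher and 0 lower at 2 d, 7 higher and 1 lower at 5 d, and 6 higher and 1 lower at 7 d (5 and 2 by library totals), against 1.22% and 0.37%, 6.35% and 4.21%, and 10% and 12.5% of all genes. By library totals 2104 of all genes were higher and 4993 lower in the line at 7 d. The median log2 fold change of the 21 was 0.93, 0.28 and -0.50 at 2, 5 and 7 d in the line and 1.12, 0.50 and 0.88 in wild-type. By highest group mean, 10 of the 21 LBD genes peaked at 2 d in the line and 9 in wild-type. The peaks of all genes were not counted. Some of these LBD genes were near the floor, such as Os01g0242400 in the line (0.115 CPM) and Os05g0123000 in wild-type (0.119 CPM). Others, such as LBD11-1 and LBD12-1, were not called in any comparison. The difference between the genotypes was called for 0 LBD genes at 2 d (4 at an unadjusted p under 0.05, 3 with DESeq2). At 5 d 2 of 21 had a lower and 3 a higher change in the line, or 9.52% and 14.3% (all genes: 6.5% and 11.8%), and at 7 d 4 a lower and 4 a higher one, or 19% each (all genes: 16.1% and 15.5%). These shares were close to those of all genes. These counts turned on single libraries: without replicate 1 of the line at 5 d they were 6 and 3, and without its replicate 2 at 7 d 10 and 4. By library totals the split at 7 d was 9 lower and 3 higher (all genes: 8045 and 2724). With limma on FPKM values, 7 were lower and 3 higher at 5 d (all genes: 4769 and 2606). At 7 d limma called 11 lower and 2 higher (all genes: 8879 and 2912). All genes thus leaned lower in these settings too.

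OsCrll1, CRL1 and OsCrll2, the crown root gene and 2 relatives by name, had their highest group mean at 2 d in both genotypes. CRL1L3, another by name, did not. OsCrll1 (Os03g0149000) lies on chromosome 3 from 2723037 to 2723835, plus strand. The study gives its ID for OsCRL1, whereas the annotation gives the name CRL1 to the neighbour. That neighbour, Os03g0149100 (2726696 to 2727559, minus strand), is 2860 bases away. OsCrll1 had 1.18, 1.06 and 1.76 CPM on N6, 13.7, 7.84 and 13.2 CPM on CIM at 2 d, 3.95, 3.35 and 3.07 CPM at 5 d and 1.22, 1.48 and 1.56 CPM at 7 d in the line. In wild-type scutella it had 1.51, 1.13 and 1.36 CPM on N6, 23.2, 31.7 and 30.9 CPM on CIM at 2 d, 6.91, 9.70 and 7.59 CPM at 5 d and 2.37, 3.11 and 3.03 CPM at 7 d. Both genotypes were highest at 2 d, with the wild-type libraries above those of the line, and by 7 d the line was back among its N6 libraries. The log2 fold change was 3.12 ± 0.24 in the line and 4.42 ± 0.25 in wild-type at 2 d (± SE, both called by edgeR). The genotypes differed by -1.30 at 2 d (edgeR adjusted p = 0.072; 0.012 with DESeq2) and by -1.22 at 5 d (edgeR adjusted p = 0.0069). The 5 d difference fell to -0.97 without N6 replicate 3 of the line. The counting is not stated to use strand, so reads of the antisense gene Os03g0149050, which overlaps OsCrll1 and averaged 0.616 CPM, cannot be told apart from its own (7.33 CPM).

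CRL1 itself was close to 0 on N6, with 0.0639, 0 and 0.325 CPM in the line and 0.116, 0 and 0.0928 CPM in wild-type. On CIM it had 4.69, 4.98 and 4.54 CPM at 2 d, 2.59, 2.46 and 2.15 CPM at 5 d and 0.904, 1.58 and 0.993 CPM at 7 d in the line, and 8.83, 11.9 and 11.8 CPM at 2 d, 5.88, 4.25 and 4.41 CPM at 5 d and 2.94, 3.34 and 3.54 CPM at 7 d in wild-type. Wild-type was above the line on each day without overlap. The fitted log2 fold change at 2 d was 5.19 in the line and 7.23 in wild-type (SE 0.68 and 0.75, called by edgeR), from N6 libraries with at most 20 counts each, or about 5 fragments, so the size of the fold is imprecise. The difference between the genotypes was not called at any time (-2.04, -1.86 and -2.34; edgeR adjusted p = 0.38, 0.15 and 0.054), although DESeq2 called it at 5 and 7 d (adjusted p = 0.023 and 0.0028). OsCrll2 (Os10g0162600), another relative, had 2.52 ± 0.754 CPM in the line and 9.05 ± 0.870 CPM in wild-type at 2 d, against 0.308 ± 0.326 and 0.472 ± 0.324 CPM on N6 (SD, n = 3 each). In the line its 2 d libraries (3.38, 2.17 and 2.00 CPM) overlapped those at 5 d (3.35, 1.93 and 1.47 CPM). Its difference at 7 d (-2.55, edgeR adjusted p = 0.03) was lost on leaving out any one of 6 of its 12 libraries (adjusted p = 0.059 to 0.24). The 2 root-specific RCc genes, RCc2 and RCc3, also had their highest summed level at 2 d, 201 to 269.8 CPM in the line and 515 to 759 CPM in wild-type, against 44.2 to 90.8 and 95.8 to 206 CPM on N6. Their part in these values was not tested.

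OsDH1 (Os02g0820500, chromosome 2: 35227503 to 35228609, minus strand) started close to 0 on N6, as CRL1 and Os03g0246900 did. It is named for a mutant with degenerated hulls and is annotated as similar to LOB domain protein 17. N6 libraries had 0.176, 0.0606 and 0 CPM in the line and 0.174, 0 and 0.0618 CPM in wild-type, at most 12 counts in a library. On CIM the line had 3.32, 1.44 and 2.30 CPM at 2 d, 15.5, 4.46 and 2.00 CPM at 5 d and 0.628, 1.09 and 1.69 CPM at 7 d, and wild-type had 4.81, 4.41 and 9.06 CPM at 2 d, 78.2, 73.0 and 65.2 CPM at 5 d and 47.1, 52.2 and 42.3 CPM at 7 d. Every CIM library was above every N6 library, and wild-type was above the line without overlap on each day. Replicate 1 of the line at 5 d was more than 3 times as high as the other 2 of its group. All 6 changes against N6 were called by edgeR, at 3.82 to 6.50 in the line and 6.21 to 9.78 in wild-type on the log2 scale, sizes that rest on a handful of fragments on N6. The genotypes differed at 7 d (-5.35, SE 1.51, edgeR adjusted p = 0.007). This call was lost without N6 replicate 1 of the line (-4.06, adjusted p = 0.18) and on counts divided by 4 (adjusted p = 0.069), and the difference at 5 d (-3.27, edgeR adjusted p = 0.087) was called without 5 d replicate 1 of the line (-4.45, adjusted p = 0.0077) and with DESeq2 (adjusted p = 0.022). Os03g0246900, annotated as similar to LOB domain protein 16, ran along with OsDH1 at lower level (Pearson's r = 0.93 of log2 CPM over the 24 libraries, which share 8 groups). It reached 0.881 ± 0.649 CPM in the line and 5.75 ± 2.40 CPM in wild-type at 7 d (SD, n = 3 each), and its change differed by -2.42 (edgeR adjusted p = 0.062; 0.031 with DESeq2).

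Os07g0589000, OsLBD38 and Os08g0563400 were called with a higher change in the line, and their courses differed from each other. Os07g0589000 (chromosome 7: 23996515 to 23997565, plus strand), described only by its LOB domain, had 5.87, 7.19 and 5.15 CPM on N6, 5.28, 5.93 and 4.22 CPM on CIM at 2 d, 23.4, 35.1 and 34.0 CPM at 5 d and 43.7, 46.0 and 45.4 CPM at 7 d in the line. It stood at 3.59, 5.88 and 4.51 CPM on N6, 10.9, 14.9 and 11.9 CPM on CIM at 2 d, 5.14, 8.13 and 7.75 CPM at 5 d and 4.71, 2.76 and 9.02 CPM at 7 d in wild-type. The line rose late, with every library at 5 and 7 d above every wild-type library, whereas wild-type was highest at 2 d and then overlapped N6. It was higher in the line at 5 d (2.34) and 7 d (2.89) and in wild-type at 2 d (1.43), all called by edgeR, and the difference was 1.76 at 5 d and 2.65 at 7 d (edgeR adjusted p = 0.0043 and 6.3e-05). At 2 d the difference had the other sign (-1.67, edgeR adjusted p = 0.082), and DESeq2 called it (adjusted p = 0.014). OsLBD38 (Os03g0609500), annotated as a transcriptional activator that regulates heading date, had 4.59, 6.0 and 4.03 CPM on N6, 4.69, 3.94 and 3.79 CPM on CIM at 2 d, 4.49, 7.48 and 5.44 CPM at 5 d and 9.21, 12.2 and 8.85 CPM at 7 d in the line. It stood at 5.84, 2.86 and 4.14 CPM on N6, 2.03, 2.05 and 1.49 CPM on CIM at 2 d, 1.29, 1.85 and 1.34 CPM at 5 d and 1.82, 2.18 and 0.770 CPM at 7 d in wild-type. All 9 wild-type CIM libraries were below the 6 N6 libraries, and the 7 d libraries of the line were above these. Its change differed between the genotypes by 1.77 at 5 d and 2.48 at 7 d (edgeR adjusted p = 0.0053 and 0.00018). The rise in the line (1.05) was lost by library totals (0.81) and without 7 d replicate 2 (0.89) or N6 replicate 3 (0.93), and the wild-type call at 2 d (-1.21) without 2 d replicate 3 (edgeR adjusted p = 0.068) or N6 replicate 1 (0.072).

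Os08g0563400 started lower in the line on N6, as given above, and had 15.6, 17.8 and 12.5 CPM at 2 d, 15.6, 24.1 and 18.1 CPM at 5 d and 10.3, 7.85 and 14.1 CPM at 7 d there. Wild-type on CIM had 29.0, 47.4 and 36.2 CPM at 2 d, 7.91, 9.52 and 10.2 CPM at 5 d and 11.8, 11.1 and 16.5 CPM at 7 d. Wild-type was higher at 2 d, the line was higher at 5 d, and at 7 d the ranges overlapped. The change was called in the line at 2, 5 and 7 d (2.83, 3.16 and 2.32) and in wild-type at 2 d (2.40), and it differed by 2.79 at 5 d and 1.44 at 7 d (edgeR adjusted p = 1.2e-05 and 0.0019; 0.91 at 7 d by library totals, under the minimum fold). The gap on N6 enters both of these differences. OsLBD37, the relative of OsLBD38 and the second most abundant LBD gene by mean FPKM, was lower in wild-type at 5 d, with 14.2, 15.3 and 16.0 CPM against 31.1, 35.7 and 38.7 CPM on N6 (log2 fold change -1.21, SE 0.27, edgeR adjusted p = 0.00099; -0.98 by library totals). In the line it had 35.2, 23.2 and 15.2 CPM at 5 d, and the difference was not called (0.78, edgeR adjusted p = 0.12).

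**Figure D4:**
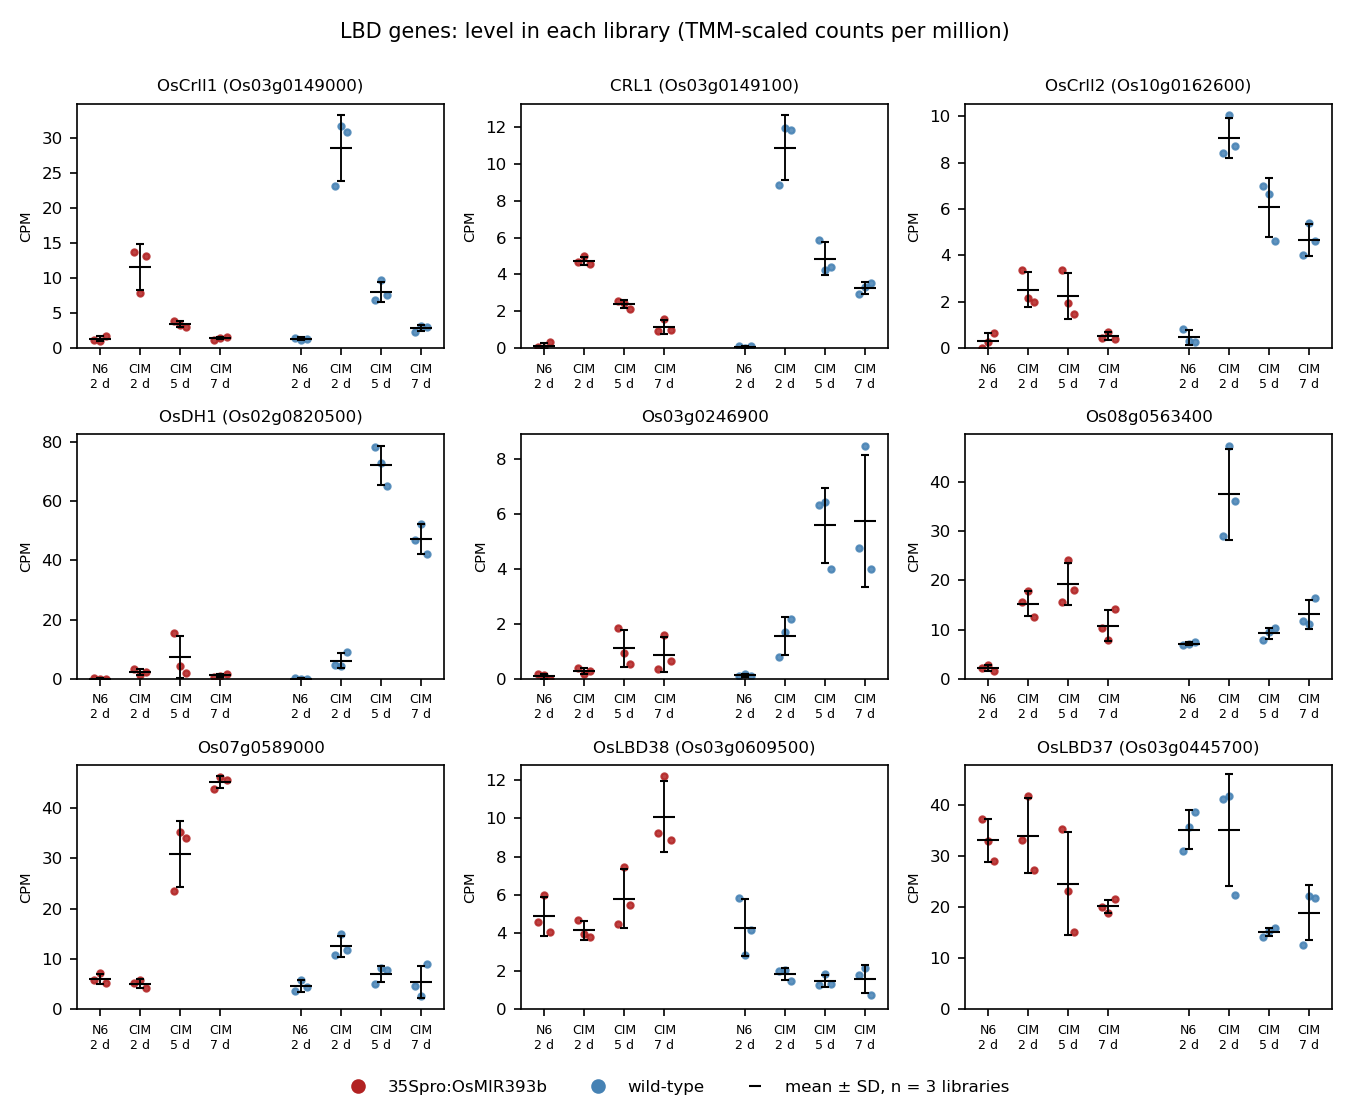
CPM of 9 LBD genes (vertical axis of each panel) in each library by medium and day (horizontal axis), with 35Spro:OsMIR393b at left and wild-type at right; points are libraries and bars the mean ± SD of 3. The crown root relatives in the top row have their highest mean at 2 d, with overlap between 2 and 5 d for OsCrll2 in the line. OsDH1 has it at 5 d (7.31 ± 7.17 CPM in the line and 72.1 ± 6.53 CPM in wild-type), and Os07g0589000 is highest in the line at 7 d (45.1 ± 1.20 CPM, and 5.49 ± 3.2 CPM in wild-type).

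The most abundant LBD gene, Os01g0511000 (similar to LOB domain protein 40), spread widely on N6. Its libraries ran from 14.5 to 112 CPM on N6 in the line and from 28.4 to 62.1 CPM in wild-type. At 7 d it had 34.2, 14.0 and 13.2 CPM in the line and 129, 138 and 107 CPM in wild-type, without overlap. No change against N6 was called. The difference between the genotypes was called at 7 d (-2.82, SE 0.96, edgeR adjusted p = 0.022). This call was lost without N6 replicate 1 of the line (-1.56), its 7 d replicate 3 (-2.58) or wild-type N6 replicate 1 (-2.58). Os01g0825000 (similar to LOB domain protein 12), named here after its values were seen, was higher in wild-type at 5 d (1.07) and 7 d (1.22) and differed in the line by -2.06 at 7 d (edgeR adjusted p = 0.00083). LBD11-1 (Os11g0106900) and LBD12-1 (Os12g0106200), the second of which sets shoot meristem size, had mean levels of 0.801 to 3.01 CPM and were not called in any comparison. They are among the 6 tested LBD genes with no call, with Os03g0659700, Os05g0123000, CRL1L3 and Os01g0772100. Their levels ran together (r = 0.92 over 24 libraries). They lie near the ends of chromosomes 11 and 12, which share a duplicated stretch, so reads of near-identical copies could be split between them.

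A few LBD genes passed the filter with few counts or none in some or all groups, and they too were named after their values were seen. Os03g0287400 (similar to LOB domain protein 4) had 1.53, 1.68 and 1.77 CPM on N6 in the line and 1.10, 2.04 and 1.89 CPM in wild-type. At 5 d it had 0 counts in all 3 libraries of the line and 12, 9 and 27 counts in wild-type, and at 7 d at most 4 counts in any library of either genotype. It was the 1 LBD gene called lower in the line at 5 d and at 7 d, and it was also called lower in wild-type at both times. The rice counterpart of maize RAMOSA2 (ra2, Os01g0169400) had 31, 32 and 10 counts in the line and 0 in all 3 wild-type libraries at 7 d, against 21, 12 and 53 counts in the line and 16, 15 and 25 counts in wild-type on N6. Its lower level in wild-type at 7 d and the difference between the genotypes were called by edgeR. Os01g0242400 and Os01g0129600, each called higher once in wild-type, at 5 d and 7 d, never exceeded a group mean of 0.502 CPM. A fitted fold against a group at 0 has no fixed size, and none is given for these genes.

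Of 28 tested Aux/IAA genes, the repressors that bind ARFs and are early auxin targets themselves, 14, 15 and 12 were higher and 0, 1 and 2 lower in the line at 2, 5 and 7 d, and 17, 18 and 18 were higher and 1, 2 and 2 lower in wild-type. Of all genes, 1.22%, 6.35% and 10% were higher in the line and 4.3%, 12.6% and 14.2% in wild-type. The difference between the genotypes was called lower for 2, 6 and 10 and higher for 0, 2 and 2 of them at the 3 times (all genes: 0.535% in either direction at 2 d, 6.5% lower and 11.8% higher at 5 d, 16.1% and 15.5% at 7 d). Their median log2 fold change at 7 d was 0.90 in the line and 1.78 in wild-type, against -0.18 and 0.96 for the ARFs. Neither receptor was called in the change on CIM or in its difference between the genotypes. Within the ARFs, OsARF5 and OsARF16 were the closest pair of the activator class over the 24 libraries (r = 0.97 of log2 CPM), OsARF14 and OsARF15 that of the tasiR-ARF class (r = 0.97), and OsARF7b ran opposite to OsARF16 (r = -0.97). These values describe libraries that share 8 groups and carry no test.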

How the data were processed

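RNA was extracted from scutella of 2 genotypes in 4 culture conditions, and polyadenylated RNA libraries were made with an Illumina TruSeq kit. Per the submitters' processing notes, reads were handled with Trimmomatic 0.36 and HISAT2 2.1.0 on IRGSP-1.0 and quantified with StringTie 1.3.4d. The study's methods give an older HISAT release and add a UMI-tools step against amplification noise, which the notes do not list. The deposited table holds estimated read counts per gene as whole numbers, not normalised, and the authors' FPKM, which divide by transcript length and library total and stand at 0.0001 where the count is 0. In every library more genes had 4 counts than 3 or 5, so a fragment was taken as about 4 counts and 12 counts (3 fragments) as the floor of detection in a library.

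Members were found by matching the table's descriptions and names, as given above, and ARFs were put in classes by gene ID. The members, classes and lists were chosen with earlier results of these data known. Counts were fitted with edgeR 4.0.16 (R 4.3.3: filterByExpr, TMM, quasi-likelihood, 24 libraries in 1 fit, 16 residual degrees of freedom), with Benjamini-Hochberg adjustment over all 29710 tested genes. Standard errors were obtained by dividing the size of each log2 fold change by the root of its F statistic. The 10 comparisons were CIM at 2, 5 and 7 d against N6 in each genotype, the line minus wild-type in these changes, and both genotypes on N6 (line against wild-type). Described as biological replicates, the libraries are not said in the labels to come from separate cultures, so p-values measure the spread between these libraries.

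The text names OsCrll1 and the ARFs whose IDs the study lists, for each comparison and family up to 3 called members from each end of the log2 fold changes (higher group mean of at least 2 CPM), and the 3 members of each family with the highest mean FPKM. Other members are named only to account for a count or a class, after their values were seen. Of the marker lists, matching by text also caught genes of other function, which were left out after their descriptions were read: 7 of 9 root genes, 8 of 25 scutellum and aleurone genes, 4 of 25 cell division genes and 2 of 50 endosperm genes. A list of TOPLESS co-repressors caught only an aspartic proteinase and was not used.

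Alternatives were DESeq2 1.42.0, its size factors in edgeR, library totals, no filter, only the groups compared, a replicate block, counts divided by 4, limma 3.58.1 on log2(FPKM + 0.1), and leaving out each of the 24 libraries in turn. Tested on simulated counts with 200 changed genes, edgeR called 86% of genes changed by 2 on the log2 scale, with 5 false calls, for wild-type at 7 d against N6 (29127 genes), and 72%, with 6 false calls, for the difference between the genotypes at 7 d (29139 genes). The changed genes all averaged above 1 CPM, so these figures do not cover scarcer members. Nor do they cover the wide shifts in scale between the real groups. Sequences of the members were not analysed here. Figures were drawn with Matplotlib 3.10.9 in Python 3.11.15.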

Additional observations from a re-analysis of the deposited data

Results flagged for a closer look

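Each of the following results was singled out because the change on CIM against N6 differed between 35Spro:OsMIR393b and wild-type by edgeR's test of that difference. At 5 d this held for 9 ARFs and 5 LBD genes, and at 7 d for 16 ARFs and 8 LBD genes, out of 25 and 21 tested. Of all genes, 6.5% had a lower and 11.8% a higher change in the line at 5 d, and 16.1% and 15.5% at 7 d, and the shares of LBD genes were close to these.

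Among activator ARFs the log2 difference at 7 d, line minus wild-type, was -2.90 for OsARF5, -2.66 for OsARF11, -2.47 for OsARF16 and -1.98 for OsARF19. It was -2.63 for OsARF12, which was put in this class by gene ID and which the membership rule did not catch, and 1.60 for OsARF7b, the positive value in this class. In the tasiR-ARF class the log2 difference was -2.43 for OsARF2 and -2.00 for OsARF3 at 7 d, and -2.60 for OsARF14 and -1.42 for OsARF15 at 5 d. Among the other ARFs it was -2.66 for OsARF23, -2.20 for OsARF9, -1.75 for OsARF8 of the miR160 class and -1.30 for OsARF4 at 7 d, and -1.0 for OsARF13 at 5 d. The OsARF13 call was lost in some refits without a single library, as given above.

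Among the LBD genes the log2 difference was -5.35 for OsDH1, -2.82 for Os01g0511000 and -2.55 for OsCrll2 at 7 d, and -1.22 for OsCrll1 at 5 d. Each of these calls was lost in some refits without a single library, as given above. The size for OsDH1 rests on N6 libraries with at most 12 counts. The log2 difference was positive for Os07g0589000 at 2.65 and OsLBD38 at 2.48 at 7 d, and for Os08g0563400 at 2.79 at 5 d. Dixon's test for an outlying library was not run on groups of 3.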

How the results depend on the processing

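Counts of called members moved by more than 1.5 times under few settings. For the difference between the genotypes at 2 d, where 0 were called, DESeq2 called 2 ARFs and 3 LBD genes, and limma on FPKM and a fit of only the groups compared called 1 LBD gene each. At 5 d the 5 LBD genes were 8 with DESeq2 and 10 with limma on FPKM. At 7 d the 8 LBD genes were 13 with limma on FPKM. Over all genes limma on FPKM called 4769 lower and 2606 higher at 5 d, and 8879 and 2912 at 7 d. On N6 DESeq2 called 2 LBD genes. The causes were not tested.

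Leaving out each library in turn gave 1 to 3 ARFs for the line at 2 d (1 without its 2 d replicate 1), 7 to 13 ARFs and 5 to 9 LBD genes for the difference at 5 d, 16 to 17 ARFs and 7 to 14 LBD genes at 7 d, 0 to 1 of each family at 2 d (1 without wild-type 2 d replicate 1) and 1 to 2 LBD genes on N6. The log2 fold change of OsARF5 in the line at 7 d ranged from -1.37 to 0.96, the 1 reversal among 2184 such values of single genes, of which 2074 kept their direction and side of the threshold.

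Libraries with the same replicate number did not deviate together (mean correlation -0.008 over 84 pairs, and 0.004 over 168 pairs of other numbers), so the numbers were not taken as pairs. With a replicate block the count of ARFs with a difference at 5 d was 7, the count in wild-type at 7 d was 12 ARFs in place of 13, the other family counts stood as reported, and the OsARF19 difference at 5 d had an edgeR adjusted p of 0.051. On N6, CRL1, OsDH1 and Os03g0246900 had 0 to 20 counts a library, around the floor of 12 counts, which limits their folds.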
